A study of Rattus norvegicus with 20 samples.

Results

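The miR-23, miR-27 and miR-24 microRNAs (miRNAs) of rat kidney were followed through injury by aristolochic acid I (AAI), a nephrotoxic plant acid whose metabolites bind DNA. They are encoded in 2 clusters, one with the precursors of miR-23a, miR-27a and miR-24-2 and one with those of miR-23b, miR-27b and miR-24-1. Members were the rows of the scanner files that carried the names miR-23a-5p, miR-23a-3p, miR-27a-3p, miR-23b-3p, miR-27b-3p and miR-24-3p, which gave 6 of the 719 rat miRNAs on the array. Each array measured miRNA in total RNA of 1 whole kidney of a male Wistar rat, with 20 arrays in all. The vehicle group held 5 kidneys of rats given only the solvent (PEG400, a polyethylene glycol, diluted 1:1 with dH2O) and collected on day 6. The AAI groups held 5 kidneys each, collected on day 2, 4 or 6 from rats given AAI intraperitoneally at 40 mg per kg of body weight. Since vehicle was collected on day 6 only, time and treatment cannot be told apart in the comparisons of day 2 and day 4 with vehicle. Nothing in the labels says that the 5 kidneys of a group came from separate animals, so p-values measure the spread between these samples.

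A miRNA precursor is cut to a short duplex, of which one strand, the guide, is kept in the silencing complex, while the other, the passenger, is mostly degraded. For both clusters the 3p strands are the usual guides, and the 5p strands are the passengers. In human cells miR-23a has been shown to repress glutaminase, and miR-24 the histone variant H2AX, which marks DNA breaks. The miR-27 pair represses the adipogenic receptor PPAR-gamma, and miR-24 has been studied in mouse kidneys after ischaemia.

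The mature sequences show which members an array can separate, and which share targets. They are given 5′ to 3′ from RefSeq (build GRCr8), which held 5 of the 6 members, with the seed (bases 2 to 8, which pair with targets) in capitals.
rno-miR-23a-3p: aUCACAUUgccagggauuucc
rno-miR-23b-3p: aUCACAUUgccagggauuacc
rno-miR-27a-3p: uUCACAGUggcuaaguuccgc
rno-miR-27b-3p: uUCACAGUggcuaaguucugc
rno-miR-24-3p: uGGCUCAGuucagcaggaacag
The miR-23 pair shared 1 seed, the miR-27 pair another, and miR-24-3p had a seed of its own. Counted from the 5′ end, miR-23a-3p and miR-23b-3p differed by 1 base (U19A), and miR-27a-3p and miR-27b-3p also by 1 (C19U). Mature miR-24-3p had the same sequence from both precursors, so its signal is the sum of both clusters.

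The passenger strand miR-23a-5p was read by 4 probes of 12, 13, 14 and 15 bases, all from the same end of the miRNA. The Mir23a hairpin (RefSeq, GRCr8, chromosome 19, minus strand) is shown with 2 stretches in capitals, first the bases that pair with the longest probe and then mature miR-23a-3p.
Mir23a hairpin: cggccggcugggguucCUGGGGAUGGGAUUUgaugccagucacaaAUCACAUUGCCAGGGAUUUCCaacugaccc
The longest probes of the 2 arms shared a run of 7 bases, which is in capitals here.
miR-23a-5p probe: AAATCCCatccccag
miR-23a-3p probe: ggAAATCCCtggcaatgt
The guides had 2 probes each, of 16 to 18 bases. Counted from the 5′ end of the probe, the miR-23a-3p and miR-23b-3p probes differed by A3T, and the miR-27a-3p and miR-27b-3p probes by G3A. Whether the probes bound the paralog, or those of miR-23a-5p the abundant opposite arm, was not tested.

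By the array's design, the probes of the miR-23a cluster lay at chr19:25638459-25638809 in build rn4, and those of the miR-23b cluster at chr17:7350980-7351765. The order of the arms within each hairpin is reversed in that design relative to RefSeq, so only the spans are given. In RefSeq (GRCr8) Mir23a, Mir27a and Mir24-2 overlap no other gene, whereas Mir23b, Mir27b and Mir24-1 overlap the aminopeptidase gene Aopep. Mir24-1 also overlaps Fancc and Mir3074.

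Signal was read as fluorescence, in arbitrary units, with the local background taken off. Levels are log2 of the sum of a miRNA's probe intensities over the 75th percentile of its array, so that 1 unit is a doubling, and the number of arrays limits their precision. Between 250 and 328 miRNAs were detected per array by the scanner software, and 262 were tested because all 5 arrays of at least 1 group detected them. A change passed the test at a Benjamini-Hochberg adjusted p under 0.05 over these 262 in limma. AAI day 4 array 2 stood apart, with 328 detected miRNAs against 269 to 284 on the others of its group. The arrays sat on 3 slides. On slide 1 were AAI day 4 arrays 3 to 5 with the whole AAI day 6 group. On slide 2 were the whole AAI day 2 group, AAI day 4 arrays 1 and 2, and vehicle array 5. On slide 3 were the remaining vehicle arrays. No slide therefore held both vehicle and AAI day 6.

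Of the 6 miRNAs, only the passenger strand miR-23a-5p rose, and it did so at all 3 AAI times. It was detected on 0 of 5 vehicle arrays, 4 of 5 AAI day 2 arrays, 5 of 5 AAI day 4 arrays and 5 of 5 AAI day 6 arrays. On 3 of these 14 arrays (AAI day 2 arrays 2 and 4 and AAI day 6 array 2) the software's flag stood although 0 spots of its probes were well above background. On 13 of the 14 the software's own total for it was 2.6 to 19.3 units above that of miR-23a-3p, so the flags are given as deposited and the levels come from the spots. Its guide partner miR-23a-3p, cut from the same hairpin, did not pass the test at any time. At day 6 miR-23b-3p and miR-27b-3p of the other cluster were lower by about 0.2 log2 units. These calls were kept in only 7 of 28 alternative settings for miR-23b-3p and 8 of 28 for miR-27b-3p. In 2 of the 28 the sign reversed for each.

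The intensity of miR-23a-5p, summed over its probes, was -1.7, 5.2, 4.5, -0.3 and 4.3 on vehicle arrays 1 to 5. It was 8.4, 14.5, 21.9, 18 and 31.5 on the AAI day 2 arrays, and 24.5, 38.4, 30.4, 20.5 and 27.1 on the AAI day 4 arrays. On the AAI day 6 arrays it was 27.7, 15.4, 65.2, 65.0 and 18. Every AAI array lay above every vehicle array, and the AAI day 6 arrays fell into a high pair (arrays 3 and 4) and 3 lower ones. AAI day 2 array 1, the lowest AAI array, was the 1 AAI array on which the miRNA was not detected. Single spots of the arrays' negative controls had means of 0.116 to 2.45 units and standard deviations of 1.82 to 5.55 units. These sums were small signals. A sum over 4 probes has another offset and spread than a single spot, so the sums were not tested against these values.

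As log2 levels, miR-23a-5p averaged -6.75 ± 0.53 in vehicle, -4.70 ± 0.62 at AAI day 2, -4.09 ± 0.22 at day 4 and -3.89 ± 0.82 at day 6 (SD, n = 5 each). In the limma fit it rose by 2.05 ± 0.35 (SE) at day 2 (95% interval 1.31 to 2.79, adjusted p = 0.00402). The rise was 2.66 ± 0.35 at day 4 (1.92 to 3.40, adjusted p = 0.00013) and 2.86 ± 0.35 at day 6 (2.12 to 3.60, adjusted p = 1.6e-05). It was among the tested miRNAs only through AAI day 4 and day 6, where all arrays detected it, so these p-values are not independent of the filter that admitted it. Of the 262 tested miRNAs, 1.53% rose at day 2, 2.29% at day 4 and 7.25% at day 6. For the same times, 4.2%, 6.87% and 23.3% of the tested miRNAs had groups that did not overlap.

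Because vehicle signal was not above detection, the size of this rise is an estimate. With each undetected vehicle value replaced by its array's dimmest detected signal where that was higher, miR-23a-5p was 3.98-fold higher at day 2, with 4 of 5 AAI arrays detecting it. The same ratio was 6.08-fold at day 4 and 6.99-fold at day 6. These folds leave out their own error. With the brightest probe alone the changes were 0.49 (adjusted p = 0.417), 0.89 (0.0176) and 1.00 (0.00251) at day 2, 4 and 6, with all 5 vehicle arrays at the floor of that scale. In the authors' deposited series table the changes were 3.52 (limma adjusted p = 0.0695), 5.81 (0.00046) and 6.09 (0.000126). On each array of that table the median was also the lowest value, so many entries shared a floor. With miR-23a-5p undetected in vehicle, these sizes may depend on that floor and are not read as folds.

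**Figure D1:**
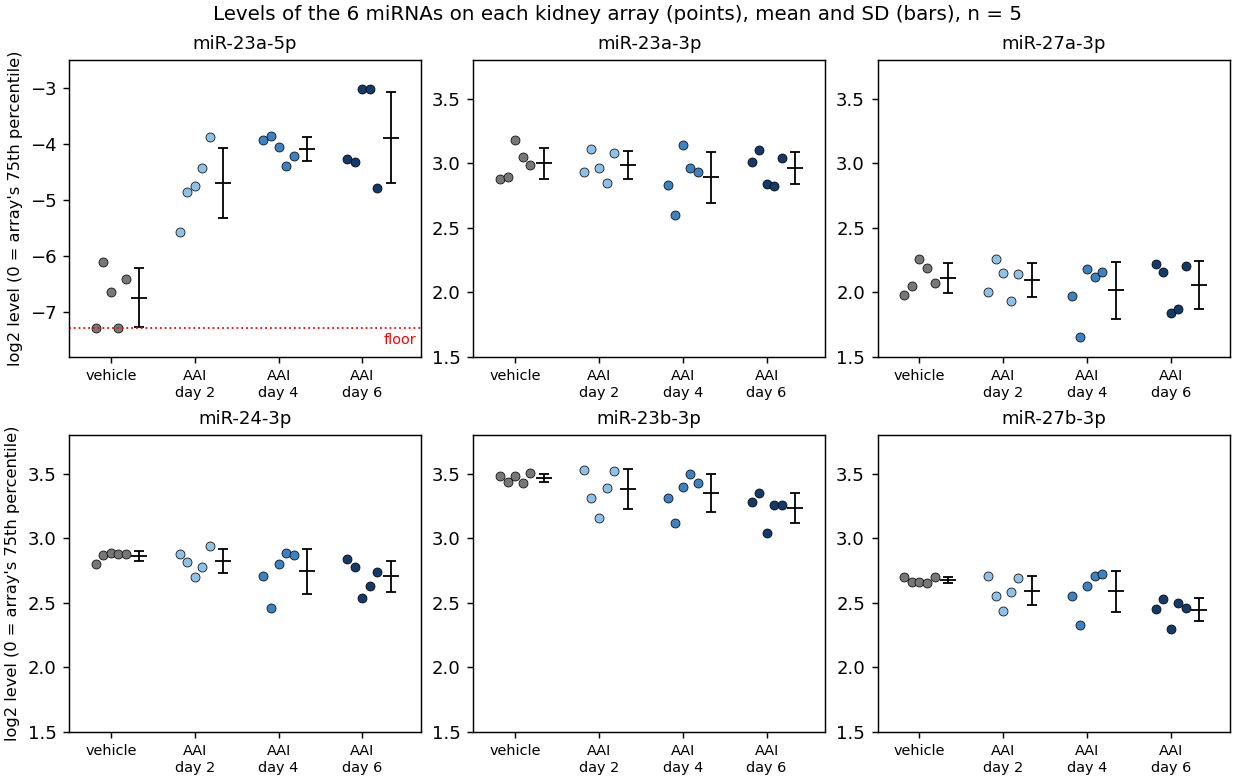
Log2 levels of the 6 miRNAs on each array (points), with the mean and SD of each group of 5 (bars), relative to the 75th percentile of the array. The miR-23a-5p panel has its own axis, and there the AAI arrays sit at -5.58 to -3.02 and the vehicle arrays at -7.29 to -6.10, of which 2 lie at the floor (dotted line).

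All 4 probes gave higher means in each AAI group than in vehicle, and longer probes gave more signal. The probe of 15 bases averaged 9.81 ± 3.48 units at AAI day 2, 12.9 ± 2.03 at day 4 and 15.3 ± 7.31 at day 6, against 3.78 ± 0.859 in vehicle (SD, n = 5 each). The probe of 14 bases averaged 6.41 ± 2.45, 9.04 ± 1.73 and 12.2 ± 5.71 units in the same AAI groups, against 1.39 ± 1.47 in vehicle. The probe of 13 bases averaged 3.25 ± 2.03, 5.22 ± 2.54 and 8.25 ± 7.76 units under AAI, against -0.811 ± 0.955 in vehicle. The probe of 12 bases gave little signal in any group, -0.615 ± 1.16, 1.02 ± 1.40 and 2.56 ± 4.25 units under AAI and -1.96 ± 0.548 in vehicle. Spots of the probe of 15 bases were well above background in 7 of 25 cases at AAI day 2, 18 of 25 at day 4 and 16 of 25 at day 6, against 0 of 25 in vehicle. The probe of 14 bases had 0 of 25, 3 of 24 and 12 of 25 such spots at these times, against 0 of 23 in vehicle. The probe of 13 bases had 10 of 25 at day 6 and 0 in the other groups, and that of 12 bases had 0 in every group. At day 6 most of these spots were on arrays 3 and 4, with 15 of 19 and 15 of 20 spots over the 4 probes, against 6, 0 and 2 of 20 on arrays 1, 2 and 5.

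**Figure D2:**
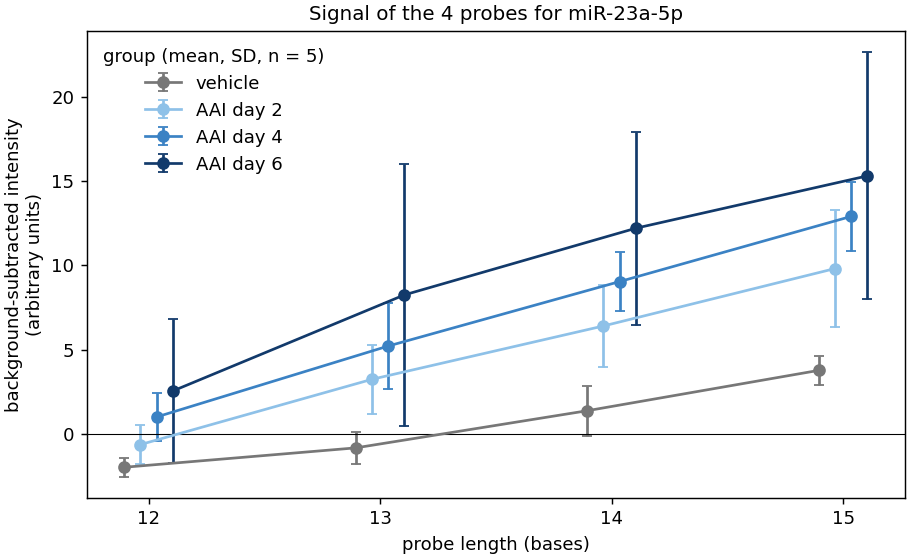
Background-subtracted intensity (arbitrary units) of the 4 miR-23a-5p probes by probe length, as the mean and SD of 5 arrays per group. Signal rises with length in every group, and at 15 bases the AAI means are 9.81 to 15.3 units against 3.78 units in vehicle.

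Between AAI times the level of miR-23a-5p did not pass the test. The order of its means was vehicle, day 2, day 4, day 6, and only the differences from vehicle passed. The difference was 0.61 ± 0.35 for day 4 against day 2 (95% interval -0.13 to 1.35, adjusted p = 0.667) and 0.20 ± 0.35 for day 6 against day 4 (-0.54 to 0.94, 0.992). For day 6 against day 2 it was 0.81 ± 0.35 (0.07 to 1.55, adjusted p = 0.153). None of the 6 miRNAs passed in these comparisons, in which limma called 0% of tested miRNAs for day 4 against day 2 (20 at an unadjusted p under 0.05), 11.1% for day 6 against day 2 and 0.763% for day 6 against day 4.

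Slide overlapped with group in the comparisons with vehicle. Within slide 2, where the lone vehicle array was taken to vary as much as the arrays of AAI groups, miR-23a-5p was 1.72 higher at day 2 (adjusted p = 0.624) and 2.52 higher at day 4 (0.0823). With slide as a fixed block it was 1.72 (adjusted p = 0.977), 2.52 (0.0498) and 2.85 (0.0221) higher at day 2, 4 and 6, and with slide as a random block 1.87 (0.0835), 2.61 (0.00787) and 2.90 (0.00219). The fixed block without AAI day 4 array 2, chosen after seeing the data, gave 1.72, 2.50 and 2.83, none past the threshold (adjusted p 0.907, 0.338 and 0.0711). Normexp background correction, which adds 200 units over the 4 probes where the highest measured sum was 65.2, left -0.11, 0.03 and 0.05.

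The arm ratio, the level of the 5p strand minus that of the 3p strand of 1 hairpin, does not depend on how arrays are scaled as long as both strands lie above the floor, which was not so on vehicle arrays 1 and 4. For miR-23a it was -8.51, -7.96, -7.71, -7.27 and -6.96 on the AAI day 2 arrays, against -10.17, -8.99, -9.82, -10.34 and -9.40 on the vehicle arrays. On the AAI day 4 arrays it was -6.74, -6.46, -7.19, -7.34 and -7.14, and on the AAI day 6 arrays -7.28, -7.42, -5.86, -5.84 and -7.83. No AAI array overlapped a vehicle array, where the 5p strand was not detected. How many of the other hairpins separated in this way was not counted. As strands are read by different probes, only the change in this ratio can be read, not its size.

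The miR-23a arm ratio rose by 2.06 ± 0.39 (SE) at day 2, 2.77 ± 0.39 at day 4 and 2.90 ± 0.39 at day 6, with adjusted p of 0.0012, 3.21e-05 and 1.74e-05 over 45 hairpins with both strands tested in limma. Hairpins past the threshold made up 4.44%, 8.89% and 20% of the 45 at these times. The 5p strand of miR-23a joined the 45 only through the AAI groups that detected it, and its vehicle side was not above detection, so its change was not ranked against the other hairpins. In the exact two-sided permutation test of miR-23a alone, p was 0.00794 at each time, the smallest that 252 splits allow (adjusted p = 0.0238 over 9 ratio comparisons). With the brightest probe the change was 0.50 at day 2, 0.95 at day 4 and 0.99 at day 6 (limma adjusted p 0.300, 0.0195 and 0.00854). The call at day 2 was lost there, with slide as a fixed block (1.72, adjusted p = 0.402), within slide 2 (1.72, 0.223) and with normexp, which left -0.15, 0.12 and 0.08 at the 3 times, none past the threshold (0.795, 0.856 and 0.819).

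Other hairpins moved toward either strand. For miR-21, an injury-associated miRNA, the change was -1.57 ± 0.21, -1.68 ± 0.21 and -1.69 ± 0.21 at day 2, 4 and 6 (limma adjusted p 3.84e-05, 1.5e-05 and 1.28e-05). Smaller changes past the threshold were those of miR-1839 (-0.42 at day 4 and -0.65 at day 6), miR-10a (-0.34 at day 4), miR-30b (-0.79 at day 6) and miR-194 (-0.74 at day 6), the last a miRNA abundant in renal tubules. The remaining calls, all at day 6 and named after their values were seen, were miR-20a (0.48, adjusted p = 0.03) and miR-192 (0.25, 0.03) toward the 5p strand and miR-196c (-0.54, 0.014) and miR-339 (-0.42, 0.00614) toward the 3p strand, all in limma. For miR-24-2, the third hairpin of the miR-23a cluster, the ratio to miR-24-3p changed by 0.17 ± 0.13 at day 2, 0.10 ± 0.13 at day 4 and 0.27 ± 0.13 at day 6 and did not pass (limma adjusted p 0.476, 0.628 and 0.148). Its 3p strand is also made from the other cluster, so that ratio does not belong to 1 hairpin.

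**Figure D3:**
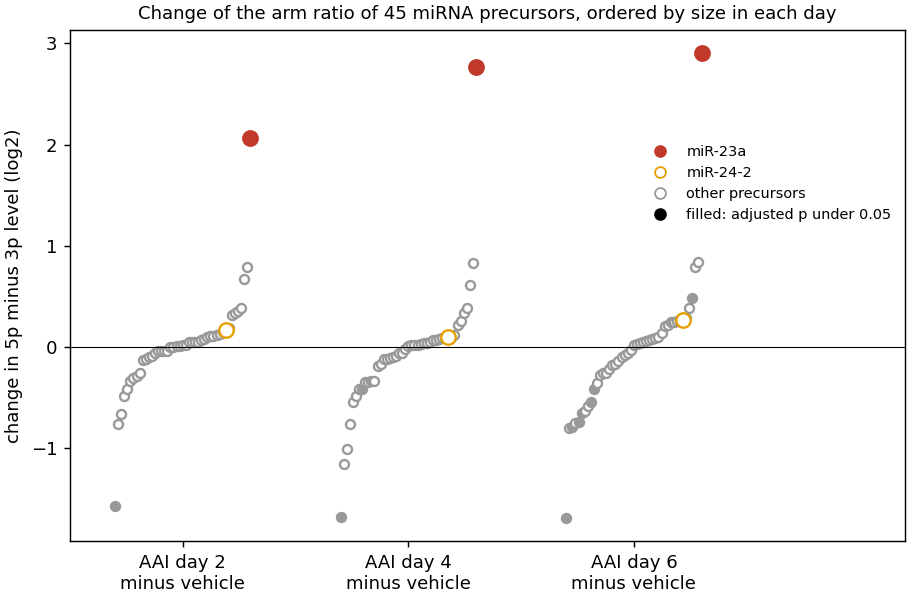
Change in the 5p minus 3p level (log2) of 45 hairpins in each AAI group relative to vehicle, ordered by size within each time, filled where the adjusted p was under 0.05. miR-23a, whose 5p strand was not detected in vehicle, lies at 2.06, 2.77 and 2.90, and miR-24-2 near 0 at 0.17, 0.10 and 0.27.

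Of the other passenger strands of both clusters, 1 was detected throughout and did not pass the test. miR-23b-5p, miR-27a-5p, miR-24-1-5p and miR-3074, whose gene overlaps Mir24-1, were detected on 0 of 20 arrays. miR-27b-5p was detected on 1 AAI day 4 array and 1 AAI day 6 array. miR-24-2-5p was detected on all 20 arrays and averaged -2.97 ± 0.27 at AAI day 2, -3.12 ± 0.20 at day 4 and -3 ± 0.24 at day 6, against -3.10 ± 0.20 in vehicle (SD, n = 5 each). Its changes of 0.13, -0.02 and 0.11 did not pass in limma (adjusted p 0.795, 0.953 and 0.586). miR-24-2-5p comes from the same cluster as miR-23a-5p.

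The guide miR-23a-3p had levels of 2.93, 3.11, 2.96, 2.85 and 3.08 on the AAI day 2 arrays, 2.83, 2.60, 3.14, 2.96 and 2.93 on the day 4 arrays and 3.01, 3.10, 2.84, 2.82 and 3.04 on the day 6 arrays, against 2.88, 2.89, 3.18, 3.05 and 2.99 on the vehicle arrays. All AAI groups overlapped vehicle. Its change was -0.01 at day 2 (95% interval -0.21 to 0.19), -0.11 at day 4 (-0.30 to 0.09) and -0.04 at day 6 (-0.23 to 0.16). The limma adjusted p of miR-23a-3p was 0.956, 0.519 and 0.807. In the same fit the interval of its passenger miR-23a-5p lay wholly above these at each time. That comparison is limited, since miR-23a-5p was detected on 0 of 5 vehicle arrays, with 2 at the floor. It was also tested only through the AAI groups that detected it. With the brightest probe its change at day 2 was 0.49 (limma adjusted p = 0.417).

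The guide miR-27a-3p, encoded beside it, had levels of 2.00, 2.26, 2.15, 1.93 and 2.14 at AAI day 2, 1.97, 1.65, 2.18, 2.12 and 2.16 at day 4 and 2.22, 2.16, 1.84, 1.87 and 2.20 at day 6, against 1.98, 2.05, 2.26, 2.19 and 2.07 in vehicle. These groups overlapped too. It changed by -0.01 (-0.24 to 0.21), -0.09 (-0.32 to 0.13) and -0.05 (-0.28 to 0.18) at day 2, 4 and 6 and did not pass in limma (adjusted p 0.943, 0.627 and 0.746). AAI day 4 array 2 was the lowest array of all 20 for miR-27a-3p, as it was for miR-23a-3p and miR-24-3p.

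The guide miR-23b-3p had levels of 3.28, 3.35, 3.04, 3.26 and 3.26 on the AAI day 6 arrays, all under the 3.48, 3.44, 3.48, 3.43 and 3.51 of the vehicle arrays. The AAI day 2 arrays gave 3.53, 3.31, 3.16, 3.39 and 3.52 and the day 4 arrays 3.31, 3.12, 3.40, 3.50 and 3.43, and both groups overlapped vehicle. The change was -0.23 ± 0.08 at day 6 (fold 0.851, 95% interval 0.754 to 0.961, limma adjusted p = 0.0469), and -0.09 and -0.11 at day 2 and 4 (adjusted p 0.788 and 0.399).

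The guide miR-27b-3p, from the same cluster, followed the same course. Its AAI day 6 arrays gave 2.45, 2.53, 2.30, 2.50 and 2.46, all under the 2.70, 2.66, 2.66, 2.65 and 2.70 of the vehicle arrays. The AAI day 2 arrays gave 2.71, 2.55, 2.44, 2.58 and 2.69 and the day 4 arrays 2.55, 2.33, 2.63, 2.71 and 2.72. The change was -0.22 ± 0.08 at day 6 (fold 0.857, 95% interval 0.766 to 0.958, limma adjusted p = 0.0375), and -0.08 at both day 2 and day 4 (0.795 and 0.520). Both probes of each miRNA gave -0.22 to -0.24 at day 6.

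These 2 lower calls stood among 18.7% of tested miRNAs that were lower at day 6, and the tested miRNAs as a whole had a median change of -0.11. Over the 6 miRNAs the median was likewise -0.11. Without scaling, where the median of all tested miRNAs was 0.26 and 1 of them was called lower, miR-23b-3p was 0.14 and miR-27b-3p 0.15 higher, and with spike-in scaling 0.02 and 0.03 higher. Each call was lost without any 1 of the vehicle arrays or of AAI day 6 arrays 1, 3, 4 and 5 (adjusted p 0.0522 to 0.138 for miR-23b-3p and 0.0501 to 0.106 for miR-27b-3p). The changes themselves stayed at -0.26 to -0.18 for miR-23b-3p and -0.24 to -0.19 for miR-27b-3p with any 1 array left out. With slide as a fixed block, where vehicle array 5 alone stood for vehicle, the falls were -0.50 and -0.49. Without AAI day 4 array 2 they were -0.41 and -0.38 in that fit.

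The guide miR-24-3p, made from both clusters, did not pass at any time. Its levels were 2.88, 2.82, 2.70, 2.78 and 2.94 at AAI day 2, 2.71, 2.46, 2.80, 2.89 and 2.87 at day 4 and 2.84, 2.78, 2.54, 2.63 and 2.74 at day 6, against 2.80, 2.87, 2.89, 2.88 and 2.88 in vehicle. The day 6 and vehicle arrays overlapped by AAI day 6 array 1 alone. The change was -0.04, -0.12 and -0.16 at day 2, 4 and 6 (limma adjusted p 0.890, 0.374 and 0.146), and its interval at day 6 was -0.33 to 0.01. With slide as a fixed block the day 6 change was -0.44 and passed (0.0418).

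Whether the 2 clusters differed in their response was tested on the difference between paralogs within each array, which no scaling of a whole array can move. miR-23a-3p minus miR-23b-3p was -0.27, -0.25, -0.19, -0.44 and -0.22 on the AAI day 6 arrays, against -0.60, -0.55, -0.30, -0.38 and -0.53 on the vehicle arrays. AAI day 6 array 4 overlapped vehicle. The difference of 0.20 ± 0.07 (SE) had an exact permutation p of 0.0317 (adjusted p = 0.0714 over 9 ratio comparisons) and did not pass. The AAI day 2 arrays ranged from -0.60 to -0.20 and the day 4 arrays from -0.54 to -0.26. At day 2 and 4 the differences were 0.08 ± 0.10 and 0.01 ± 0.08 (exact permutation p 0.460 and 0.921).

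miR-27a-3p minus miR-27b-3p was -0.23, -0.37, -0.47, -0.63 and -0.26 on the AAI day 6 arrays, against -0.72, -0.61, -0.40, -0.46 and -0.62 on the vehicle arrays. The AAI day 2 arrays ranged from -0.71 to -0.28 and the day 4 arrays from -0.68 to -0.44. The day 6 difference of 0.17 ± 0.09 did not pass (exact permutation p = 0.127, adjusted p = 0.229), nor did 0.06 ± 0.11 at day 2 and -0.01 ± 0.07 at day 4 (p 0.556 and 0.905). The clusters were thus not shown to differ, although the guides of only one of them passed at day 6. With quantile normalization the miR-23 difference at day 6 was 0.28 and passed (exact permutation adjusted p = 0.0179), as it did without AAI day 6 array 4 (0.24, adjusted p = 0.0357).

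**Figure D4:**
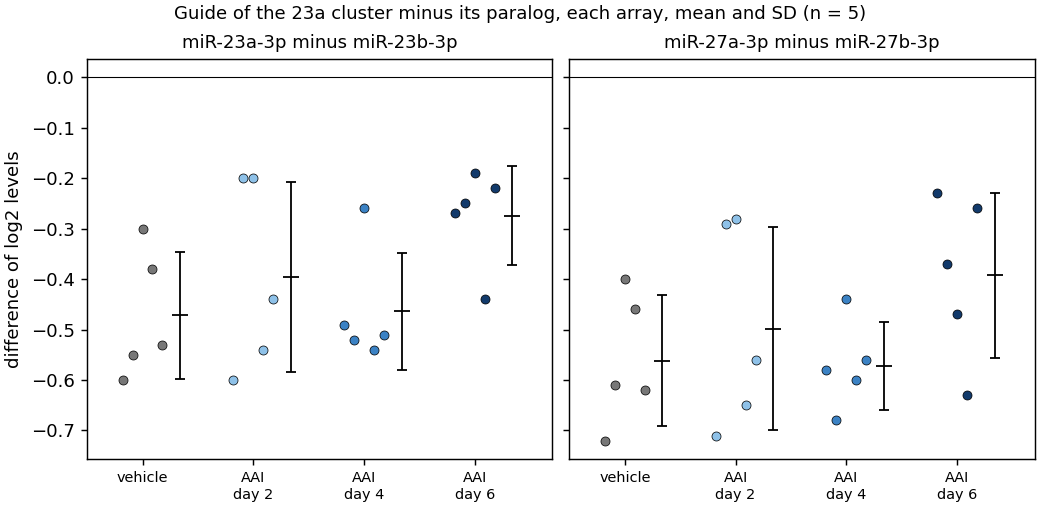
Difference of log2 levels between the paralogs on each array (points), with mean and SD of 5 (bars). The AAI day 6 means, -0.27 for the miR-23 pair and -0.39 for the miR-27 pair, lie above the vehicle means of -0.47 and -0.56, and the points overlap.

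Within groups the guides varied with their own cluster more closely than with their paralogs. Over the 20 arrays, the deviations of miR-23b-3p and miR-27b-3p from their group means had a Pearson r of 0.96 (Spearman rho 0.95), and those of miR-23a-3p and miR-27a-3p an r of 0.92 (rho 0.90). The paralogs, which differ by 1 base, had an r of 0.49 (rho 0.43) for miR-23 and 0.48 (rho 0.19) for miR-27. Without the 2 arrays farthest from the median the 4 values of r were 0.95, 0.90, 0.32 and 0. miR-24-3p had an r of 0.87 with each guide of the miR-23b cluster, 0.71 with miR-23a-3p and 0.77 with miR-27a-3p. miR-23a-5p had negative values with all 5 guides, -0.44 to -0.26. These are descriptions without a test, and all points share the scaling and labelling of their array.

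**Figure D5:**
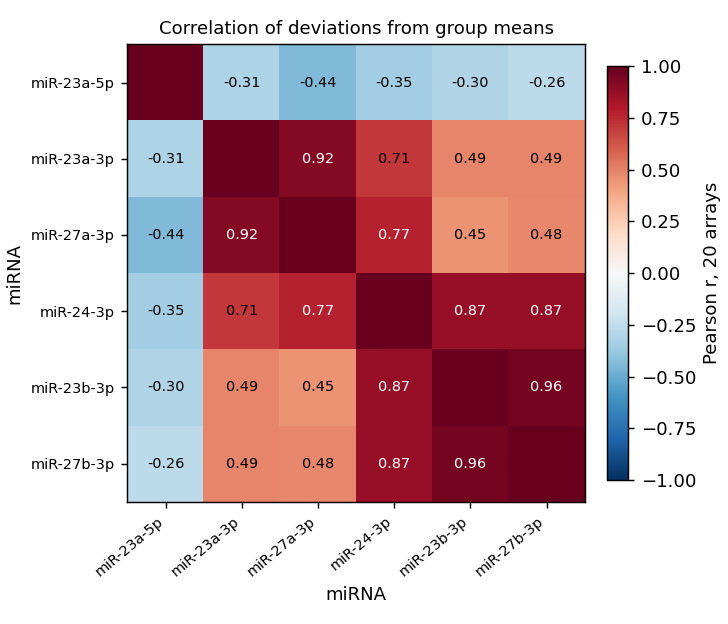
Pearson r over 20 arrays between the deviations of each pair of miRNAs from their group means. The pairs within a cluster reach 0.92 and 0.96, the paralogs 0.49 and 0.48, and miR-23a-5p is negative with every guide.

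Outside the clusters, the tested miRNAs whose level over the 20 arrays was most like that of miR-23a-5p were miR-341 (r = 0.89), miR-465-5p (0.86), miR-551b-5p (0.80), miR-3562 (0.78) and miR-30b-3p (0.75). For deviations from group means these fell to 0.56, 0.58, 0.26, 0.56 and 0.64. The most alike were miR-10a-5p (r = 0.93) and miR-200c-3p (0.87) for miR-23a-3p, and miR-362-3p and miR-199a-5p (both 0.89) for miR-27a-3p. For the other cluster they were miR-126a-3p and miR-107-3p (both 0.92) for miR-23b-3p, and miR-126a-3p (0.94) and miR-16-5p (0.92) for miR-27b-3p. let-7i-5p (0.92) and let-7a-5p (0.91) were most like miR-24-3p. These are levels over all arrays, with differences between groups included.

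A whole kidney holds many cell types, and in such samples fewer cells of a type and less RNA per cell cannot be told apart. All 8 renal tubule miRNAs on the marker list were tested, and their summed level was 44.6 to 47.3 in vehicle, 40.1 to 47.1 at AAI day 2, 34.4 to 48.7 at day 4 and 35.7 to 45 at day 6, in units of the array's 75th percentile. At day 6 limma called 3 of these 8 lower (miR-192-5p, miR-194-5p and miR-204-5p) and 0 higher, where 18.7% of all tested miRNAs were lower. The endothelial list, with miR-126a-3p and miR-126a-5p tested and miR-126b undetected, summed to 8.94 to 9.15, 8.15 to 9.20, 7.10 to 9.26 and 6.98 to 8.78 in the same order, with 0 of 2 called at any time in limma. The leukocyte list summed to 4.02 to 4.23, 3.38 to 3.85, 2.78 to 3.72 and 2.69 to 3.53, and at day 6 limma called 2 of 6 tested lower (miR-146a-5p and miR-342-3p) and 0 higher.

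Of 5 stromal and smooth muscle miRNAs, 1 was lower at day 6 (miR-214-3p), a share near that of all tested miRNAs, with sums of 8.36 to 9.61 in vehicle, 8.73 to 9.24 at day 2, 6.68 to 9.60 at day 4 and 7.27 to 9.03 at day 6. The red cell list, with 1 of 3 tested, summed to 0.408 to 1.35, 0.555 to 1.27, 0.306 to 0.673 and 0.0555 to 0.202, and miR-451-5p was lower at day 6 (-2.73 ± 0.34, limma adjusted p = 1.6e-05). Their part in the lower miR-23b-3p and miR-27b-3p at day 6 was not tested.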

How the data were processed

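Total RNA of each kidney was hybridized to 1 Agilent miRNA array with Cy3 as the only dye, per the labels. Feature Extraction 10.7.1.1 read the spots, per the file headers, and subtracted the background, so that each deposited value is a spot's intensity with no scaling across arrays. Detection and outlier flags, deposited beside it, are 0 or 1, another kind of value. A series table deposited by the authors gives log2 values of 740 entries, with a median per array of -3.32 to -3.01. On each array this median was also the lowest value. How it was scaled and centred is not given in the sources used here, so it served as an alternative only.

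The 14380 miRNA spots (1730 probes, 719 miRNAs) held no saturated spot, and spots with an outlier flag were left out. Probe means were summed per miRNA and divided by the 75th percentile of the 231 miRNAs detected on all 20 arrays, since no array detected more than 45.6% of all miRNAs. Scaled values under 0.0064, the median over arrays of the dimmest detected signal, were set to it before log2 was taken.

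In R 4.3.3, limma 3.58.1 estimated the group means of 262 miRNAs (16 residual and 2.17 prior degrees of freedom), with Benjamini-Hochberg adjustment within each contrast. The arm ratio was fitted likewise over 45 hairpins, and paralog ratios were tested by exact two-sided permutation over 252 splits. The fit was tested on simulated data.

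Besides the 6 members, the text names their opposite strands, marker lists of 5 cell types, up to 5 called hairpins per time, and the 5 (miR-23a-5p) or 2 (each guide) most correlated miRNAs. The members, lists and alternatives were chosen with earlier results of these data known.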

Additional observations from a re-analysis of the deposited data

Results flagged for a closer look

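Among 36 groups of 5 arrays checked for a far sample, 2 held one, where chance gives about 1 in 20. miR-24-3p on vehicle array 1 had a log2 level of 2.80, against 2.87 for the nearest of the other vehicle arrays. miR-23a-3p minus miR-23b-3p was -0.26 on AAI day 4 array 3, against -0.49 for the nearest array of that group.

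The passenger strand miR-27b-5p, outside the comparisons, gave an intensity of 55.8 on AAI day 4 array 2 and 14.3 on AAI day 6 array 1, both detected, against at most 9.5 on the vehicle arrays, none detected. AAI day 4 array 2 is also the array with 328 detected miRNAs. No test was made of this signal.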

How the results depend on the processing

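miR-23a-5p kept its rise and its call at day 4 in 25 of 28 alternatives and at day 6 in 25 of 27. At day 2 it kept them in 21 of 28, while 6 others lost the call and 1 reversed. Of these alternatives, 10 at each time left out 1 array and are close to the reported setting. The software's total signal is also counted as keeping the call at each time. On 13 of the 14 arrays that detected miR-23a-5p, that total lay 2.6 to 19.3 units above the total for miR-23a-3p. It therefore cannot be read as a measure of the 5p strand alone. The miRNA was tested only through AAI groups that detected it, so these counts are not independent of that filter. Leaving out 1 array gave 1.85 to 2.27 at day 2, 2.53 to 2.82 at day 4 and 2.64 to 3.09 at day 6, all past the threshold in limma. The arm ratio gave 1.88 to 2.27, 2.62 to 2.96 and 2.65 to 3.14. With the brightest probe it was smaller at day 4 and 6, at 0.95 and 0.99.

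The calls were lost as follows, with changes at day 2, 4 and 6 in that order. Normexp left -0.11, 0.03 and 0.05 for miR-23a-5p and -0.15, 0.12 and 0.08 for its arm ratio, with 0 members called at each time. Over all tested miRNAs normexp called 0 higher and 0 lower at day 2 and at day 4. At day 6 it called 5 higher and 19 lower. The fixed slide block without AAI day 4 array 2, chosen after seeing the data, gave 1.72, 2.50 and 2.83 and, for the arm ratio, 1.72, 2.66 and 3.03, also with 0 called. At day 2 the calls were lost with the brightest probe (0.49, arm ratio 0.50), the fixed slide block and within slide 2 (1.72 for both measures), and for miR-23a-5p also with the random slide block (1.87) and the deposited series table (3.52), each with 0 members called. Within slide 2 the day 4 change was 2.52, with 0 called. Testing only miRNAs detected on all arrays left miR-23a-5p out, with 0 members called at day 2 and 4. Over all tested miRNAs, day 2 had 3 higher and 1 lower with the brightest probe, and 2 higher and 0 lower with the deposited table. The share over all miRNAs is not given for the slide settings or for miRNAs detected on all arrays. Their 0 members called are therefore not read as a result about the members.

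The software's own total signal gave 7.16, 8.84 and 7.67 for miR-23a-5p. On 13 of the 14 arrays that detected it, that total was 2.6 to 19.3 units above the software's total for miR-23a-3p, at 1757 to 3058 units, against 1.10 to 1.53 in vehicle. The software's total for miR-24-2-5p likewise lay slightly above that for miR-23b-3p on every array, such as 2322 against 2312 units on vehicle array 1. The cause was not tested for either. With the software total, miR-23a-5p at day 6 minus day 4 turned to -1.17.

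At day 6, 3 members were called, 1 higher and 2 lower, where 7.25% of tested miRNAs were higher and 18.7% lower. The number was 1 without scaling, with spike-in, median or quantile scaling, the software total, the brightest probe, the deposited table and with all miRNAs detected on at least 1 array, and 1 to 3 with an array left out. Over all tested miRNAs, lower calls at day 6 numbered 1 without scaling, 2 with spike-in scaling, 11 with median scaling and 4 with the software total. The reported setting gave 49. Higher calls numbered 33, 21, 16 and 19 in the same order, against 19 in the reported setting. With quantile normalization, the brightest probe and the deposited table, lower calls at day 6 numbered 44, 45 and 38. In these settings miR-23b-3p and miR-27b-3p lost their calls although many other miRNAs were still called lower. miR-23a-3p minus miR-23b-3p at day 6 passed with quantile normalization (0.28) and ranged from 0.17 to 0.24 with an array left out.

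The guides' signs depended on scaling, and those near 0 turned in other settings too. Unscaled, miR-23a-3p, miR-23b-3p, miR-27a-3p, miR-27b-3p and miR-24-3p were 0.28, 0.21, 0.28, 0.22 and 0.26 at day 2, 0.26, 0.25, 0.27, 0.28 and 0.24 at day 4, and 0.33, 0.14, 0.32, 0.15 and 0.21 at day 6. With spike-in scaling they were 0.25, 0.17, 0.24, 0.18 and 0.22, then 0.08, 0.07, 0.09, 0.10 and 0.06, then 0.22, 0.02, 0.20, 0.03 and 0.10. Quantile normalization turned miR-23a-3p (0.11), miR-27a-3p (0.09), miR-27b-3p (0.01) and miR-24-3p (0.08) at day 2, miR-27a-3p (0.06) and miR-24-3p (0.07) at day 4, and miR-23a-3p (0.11), miR-27a-3p (0.14) and miR-24-3p (0.03) at day 6. The deposited table turned the same members to 0.10, 0.10, 0.01 and 0.06, then 0.08 and 0.06, and at day 6 miR-23a-3p and miR-27a-3p to 0.09 and 0.16. The software total turned the day 2 values to 0.07, 0.07, 0.01 and 0.05, miR-27b-3p at day 4 to 0.01, and miR-23a-3p, miR-27a-3p and miR-24-3p at day 6 to 0.18, 0.16 and 0.06. Normexp turned miR-23a-3p, miR-27a-3p and miR-24-3p at day 2 to 0.04, 0.03 and 0.01. Scaling to the median of detected miRNAs turned miR-23a-3p (day 2 and 6) and miR-27a-3p (day 2) to 0.01, as the brightest probe did miR-23a-3p at day 6. In the slide settings miR-23a-3p and miR-27a-3p at day 2 were 0 and 0.02 (fixed, and within slide 2) or 0.03 and 0.05 (random). With an array left out they ranged from -0.04 to 0.03 and -0.06 to 0.03 at day 2, and -0.07 to 0.01 and -0.09 to 0 at day 6, and miR-23a-5p at day 6 minus day 4 from -0.02 to 0.43. Of the paralog differences at day 4, the miR-23 one ranged from -0.04 to 0.05 and the miR-27 one from -0.05 to 0.03, and the miR-27 difference was 0.12 with quantile normalization and in the deposited table. None of the 145 values of the 5 guides at day 2, or of the 145 at day 4, passed.

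Same-numbered arrays of AAI and vehicle groups correlated from -0.62 to 0.58 in their deviations. They were not compared with differently numbered arrays, so this does not settle whether the numbers pair the samples. With a replicate block miR-23a-5p was 2.05, 2.66 and 2.86, all past the threshold in limma (adjusted p 0.00778, 0.000472 and 8.2e-05), and miR-23b-3p at day 6 was -0.23 (0.0530). No block was fitted to the permutation tests. Signal over background limits miR-23a-5p, and the guides are limited by scaling and slide.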
